A study of Mus musculus with 6 samples.

Results

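Eph receptors, ephrins, semaphorins, plexins and neuropilins are the genes described here, in mammary tumours against mammary glands of mice. The members were all rows of the deposited expression table whose symbol begins with Epha, Ephb, Efna, Efnb, Sema, Plxna, Plxnb, Plxnc, Plxnd or Nrp followed by a digit. This gave 54 of 24421 genes: 14 Eph receptors, 8 ephrins, 20 semaphorins, 9 plexins, 2 neuropilins and Plxna4os1, a non-coding RNA on the strand opposite Plxna4. Of these, 40 had a mean of at least 1 FPKM over all libraries and were tested, and 14 were too low to test.

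The study measured RNA in 6 libraries, 3 from mammary gland and 3 from tumour, of female mice of the inbred strain FVB/NJ, all 5 months of age. The tumour tissue came from tumour-bearing mice labelled MMTV-Tg(LINK-A), in which the LINK-A transgene (LINK-A is a non-coding transcript) is named with the mouse mammary tumour virus promoter, which drives expression in mammary epithelial cells. The glands came from mice labelled Tg(LINK-A), with no promoter in the label, so the controls also carry a transgene by their label. The labels differ between the groups in genotype along with tissue, and the contributions of the 2 cannot be told apart. Nothing in them states that each library of a group came from its own animal, so the p-values speak only of the spread among these libraries.

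Ephrins are ligands held at the cell surface, the A type by a lipid anchor and the B type by a membrane-spanning segment, and Eph receptors are the receptor tyrosine kinases that bind them on a neighbouring cell. Contact can signal into both cells, and it sets boundaries between epithelial layers and between arteries and veins. Semaphorins are secreted (class 3) or membrane-bound (classes 4 to 7) ligands. Plexins are their signalling receptors, and neuropilins are co-receptors for class 3 semaphorins and for vascular endothelial growth factor. The names come from work on growing axons, but all of these families are also made in epithelium, vessels and immune cells, the mammary gland included.

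Some libraries stood apart in other tissues' genes. The summed level of 8 skeletal muscle markers was 13.6, 13996 and 1254 FPKM in glands 1 to 3 and between 6.80 and 33.1 FPKM in the tumours. The 7 B cell markers summed to 140.2, 21.8 and 145.9 FPKM in glands 1 to 3 and to 43.3, 34.9 and 1.13 FPKM in tumours 1 to 3. Of the wider tissue markers, all 10 tested adipocyte, 13 blood endothelium and 9 fibroblast genes were lower in the tumours, and all 11 luminal epithelium genes were higher. Of the other lists, 8 of 9 pericyte and smooth muscle, 5 of 6 T cell, 2 of 3 lymphatic endothelium, 3 of 7 basal and 3 of 8 macrophage genes tested were lower and none higher. Of 7 Schwann cell and nerve genes tested, 3 were higher and 4 lower, and no B cell or skeletal muscle gene passed. Both tissues held the 11 luminal epithelium genes, at a summed 1259 to 1336 FPKM in glands and 3432 to 3730 FPKM in tumours. In such bulk tissue, fewer cells of a type and less RNA per cell cannot be told apart. Total read numbers were not given. Between 48 and 51 members lay above 0 FPKM in each library.

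Eph receptors and A-type ephrins were mostly higher in the tumours, while B-type ephrins, neuropilins and most semaphorins that changed were lower. Of the 40 members tested, 9 were higher and 17 lower at an adjusted p of 0.05 (limma), and 14 did not pass. These are 22.5% and 42.5% of the members, against 21.9% higher and 23.1% lower among all 13364 genes tested. The median log2 fold change, tumour minus gland on log2(FPKM + 1), was -0.38 over the members and 0.0083 over all genes tested. On this scale the changes of low genes are understated. The 3 values of one group lay beyond those of the other for 27 of the 40 members, against 58.2% of all genes tested. At a common sum per library 5 members were higher, with Efna1, Ephb3, Ephb4 and Sema4g no longer called. Under quantile normalization, which moved the median of all genes to 0.12, 11 were higher and 10 lower. There Efna2, Efnb2, Nrp2, Plxna2, Sema5a, Sema6a and Sema6c were no longer called, and Plxna3 and Sema3f were newly called higher. Leaving out 1 library gave between 5 and 10 higher members and between 12 and 18 lower ones: 5 higher without gland 1, gland 3 or tumour 2. Without glands 1 and 3 together, which leaves 1 gland assumed to vary like the tumours, 2 were higher (Epha2 and Efna5) and 9 lower.

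**Figure D1:**
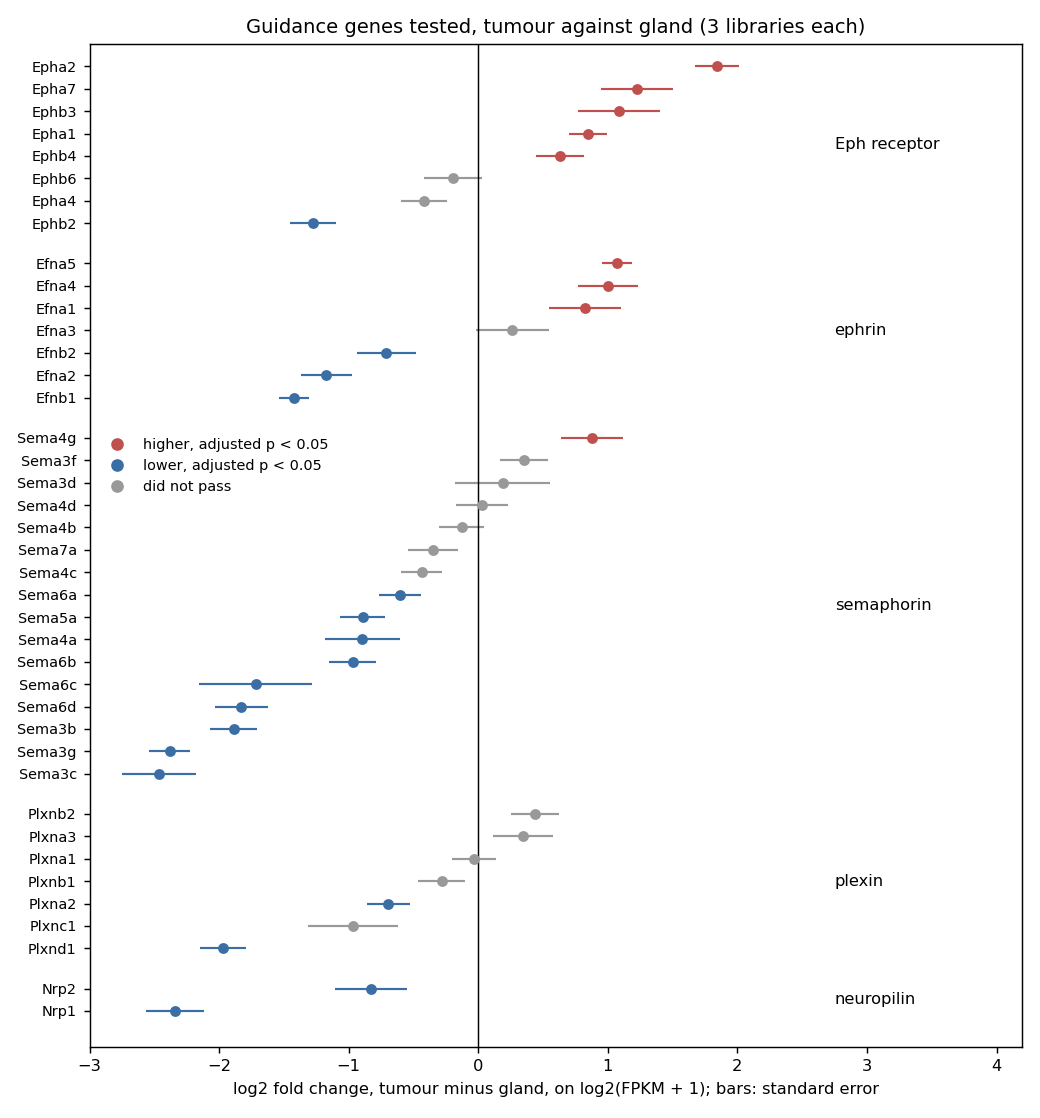
Log2 fold change of each of the 40 members tested, tumour minus gland, on log2(FPKM + 1) (x axis), with the standard error as a bar, grouped by family and coloured by call (3 libraries per group). Eph receptors lie mostly to the right, with Epha2 farthest at 1.84, and semaphorins and neuropilins mostly to the left, with Sema3c farthest at -2.46.

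Among the 8 Eph receptors tested, 5 rose, 1 fell and 2 did not pass. These are 62.5% higher and 12.5% lower, against 21.9% and 23.1% of all genes tested. Epha2, a receptor of epithelial cells that is bound by ephrin-A1, had the largest log2 fold change of the 9 higher members. It measured 3.76, 2.95 and 3.54 FPKM across glands 1 to 3, and 12.6, 13.8 and 18.5 FPKM across tumours 1 to 3, so that every tumour lay well above every gland. Its mean was 4.38 times as high in the tumours, giving a log2 change of 1.84 (SE 0.17, adjusted p = 2.87e-04). Epha1, an A-type receptor also made in epithelium, measured 3.58, 2.78 and 3.18 FPKM across the glands, and 5.69, 6.98 and 6.91 FPKM across the tumours (log2 fold change 0.85, SE 0.14, adjusted p = 0.00345). Every tumour again lay above every gland, at a smaller distance than for Epha2. Epha1 overlaps Zyx and 2010310C07Rik on the other strand, as Ephb4 does Zan and Sema6d does 4930517E11Rik and 4930583P06Rik. The labels do not say whether the counting used strand, so reads from the overlapping stretches may have been given to either gene. Epha7, a receptor best known from the nervous system, rose from 1.03 ± 0.323 to 3.90 ± 1.78 FPKM (mean ± SD, n = 3 each). Its log2 fold change was 1.23 (SE 0.28, adjusted p = 0.011). Tumours 1 to 3 held 2.77, 2.98 and 5.96 FPKM, and without tumour 3 the log2 fold change was 0.945.

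The B-type receptor Ephb4, which marks veins and is also made by mammary epithelium, was the most abundant Eph receptor in both tissues. It measured 20.8, 18.5 and 19.5 FPKM across glands 1 to 3, and 24.2, 30.1 and 40.3 FPKM across tumours 1 to 3. The groups did not overlap, and tumour 3 was highest, giving a log2 change of 0.63 (SE 0.18, adjusted p = 0.0286). Ephb3, a receptor of epithelial boundaries, measured 5.39, 4.05 and 4.86 FPKM across the glands, and 7.25, 10.005 and 19.0 FPKM across the tumours (log2 fold change 1.09, SE 0.31, adjusted p = 0.0281). Tumour 3 again held the highest value, and without it the log2 fold change was 0.73. That library also had the lowest summed blood endothelium (41.7 FPKM) and fibroblast markers (130.9 FPKM) of all 6, whose part in this was not tested. The calls of Ephb3 and Ephb4 were each lost without gland 1, gland 2, gland 3 or tumour 2. In those fits the adjusted p was 0.0553 to 0.0853 for Ephb3 (range 0.00927 to 0.215 across alternatives) and 0.0602 to 0.0835 for Ephb4 (range 0.00936 to 0.224).

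Ephb2, a receptor for ephrin-B ligands, went the other way. It dropped to 0.320 ± 0.121 FPKM from 2.19 ± 0.159 FPKM (log2 change -1.28, SE 0.18, adjusted p = 0.00138), a mean 6.84 times as high in the glands. Ephb6, a receptor whose kinase domain is inactive, measured 5.04, 3.17 and 3.79 FPKM across the glands, and 3.13, 4.52 and 2.53 FPKM across the tumours, and the groups overlapped (adjusted p = 0.512). Epha4, which binds ephrins of both types, measured 1.92, 2.12 and 2.55 FPKM across the glands, and 1.18, 1.74 and 1.27 FPKM across the tumours (adjusted p = 0.0954). Its groups did not overlap. Under quantile normalization the log2 fold changes of Epha4 and Ephb6 turned to 0.13 and 0.19.

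The ephrin ligands parted by type. Among the 5 A-type ephrins tested, 3 rose, 1 fell and 1 did not pass, and both B-type ephrins tested were lower. Summed over each type, A-type ephrins measured 22.3, 18.5 and 22.1 FPKM across glands 1 to 3, and 32.1, 33.1 and 53.0 FPKM across tumours 1 to 3. B-type ephrins stood at 22.6, 19.0 and 20.03 FPKM in the same glands and at 6.81, 7.47 and 9.27 FPKM in the same tumours. The 2 types were thus about level in the glands and far apart in every tumour. No test of the difference between the types was made.

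Efna5, a lipid-anchored ligand of several EphA receptors and of EphB2, had little spread in either group. It measured 3.50, 3.44 and 3.53 FPKM across the glands, and 8.54, 8.76 and 8.01 FPKM across the tumours (log2 fold change 1.07, SE 0.11, adjusted p = 4.86e-04). Efna4 measured 4.65, 2.94 and 3.87 FPKM across the glands, and 7.004, 7.43 and 11.9 FPKM across the tumours (1.003, SE 0.23, adjusted p = 0.0120). Efna1, the main ligand of EphA2 and an endothelial and epithelial gene, measured 10.9, 8.99 and 11.7 FPKM across the glands, and 14.8, 15.6 and 31.0 FPKM across the tumours. Tumour 3 stood far above the other tumours for Efna1, whose log2 fold change of 0.82 (SE 0.28, adjusted p = 0.0482) was 0.50 without that library. The call of Efna1 was lost without gland 1, gland 2, gland 3 or tumour 2 (adjusted p = 0.0587 to 0.134 in those fits, range 0.0251 to 0.243 across alternatives). Efna2 dropped to 0.409 ± 0.162 FPKM from 2.18 ± 0.454 FPKM (log2 change -1.17, SE 0.20, adjusted p = 0.00332).

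Efna1, Efna3 and Efna4 are neighbours on the minus strand of chromosome 3 (89271733 to 89338028, GRCm38, the build also called mm10). Efna4 and Efna1, at the ends of this stretch, rose, while Efna3 between them did not pass. Efna3 measured 1.22, 1.28 and 0.307 FPKM across glands 1 to 3, and 1.48, 0.844 and 1.49 FPKM across tumours 1 to 3, and the groups overlapped (log2 fold change 0.26, adjusted p = 0.476).

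Efnb1, a membrane-spanning ligand of EphB receptors, was the most abundant ephrin of the glands. It measured 16.4, 13.9 and 14.9 FPKM across the glands, and 4.79, 5.04 and 5.16 FPKM across the tumours, with no overlap. Its log2 fold change was -1.42 (SE 0.11, adjusted p = 1.57e-04), a mean 3.02 times as high in the glands. Efnb2, the arterial partner of Ephb4, dropped to 2.67 ± 1.11 FPKM from 4.84 ± 0.556 FPKM (log2 change -0.71, SE 0.23, adjusted p = 0.0406). The call of Efnb2 was lost without gland 1, gland 2, gland 3, tumour 1 or tumour 2 (adjusted p = 0.0720 to 0.122 in those fits, range 0.00358 to 0.353 across alternatives). The receptor Ephb4 and this ligand thus differed in sign, the receptor higher and the ligand lower in the tumours.

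**Figure D2:**
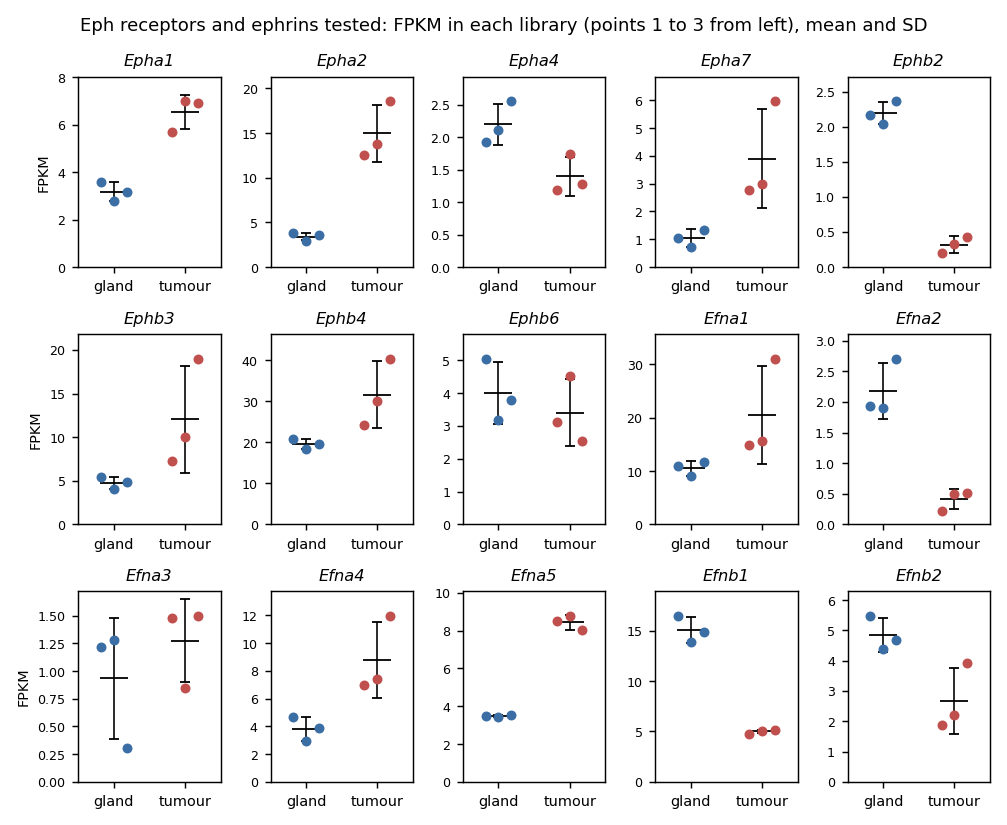
FPKM (y axis, from 0) of the 15 Eph receptors and ephrins tested, in each gland (blue) and tumour (red) library, with points 1 to 3 from the left and the mean and SD in black (n = 3 each). Epha2 and Efna5 are higher in every tumour, Ephb2 and Efnb1 are lower in every tumour, and tumour 3 is the highest point for Ephb3, Ephb4, Efna1 and Efna4.

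Both neuropilins, the co-receptors of secreted semaphorins, were lower in the tumours. Nrp1, the neuropilin of blood vessels, measured 23.4, 23.4 and 25.4 FPKM across glands 1 to 3, and 4.74, 5.11 and 2.47 FPKM across tumours 1 to 3. Every gland lay far above every tumour, and the log2 fold change was -2.34 (SE 0.22, adjusted p = 3.13e-04). Nrp2, the neuropilin of lymphatic vessels and veins, measured 11.2, 9.82 and 10.1 FPKM across the glands, and 5.98, 8.09 and 3.14 FPKM across the tumours (-0.83, SE 0.28, adjusted p = 0.0467). Tumour 3 was lowest, and without it the log2 fold change of Nrp2 was -0.52. The 5 lymphatic endothelium markers, of which Mmrn1 was at 0 in tumour 3 and Ccl21a at 0 in gland 2 and tumours 1 and 3, summed to 20.4, 11.7 and 18.7 FPKM in glands 1 to 3 and 5.35, 7.02 and 1.83 FPKM in tumours 1 to 3, and their part in this was not tested. The call of Nrp2 was lost without gland 1, gland 2, gland 3 or tumour 1 (adjusted p = 0.0749 to 0.121 in those fits, range 0.0204 to 0.375 across alternatives).

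Of 7 plexins tested, 2 were lower, none was higher and 5 did not pass. The lower ones are 28.6% of those tested, near the 23.1% of all genes tested. Plxnd1, the plexin of endothelium, measured 30.1, 26.0 and 28.6 FPKM across the glands, and 6.27, 8.50 and 4.98 FPKM across the tumours (log2 fold change -1.97, SE 0.18, adjusted p = 2.73e-04). It was the second plexin of the glands by level and the fourth of the tumours. Plxna2, a receptor for class 6 semaphorins, dropped to 0.675 ± 0.0995 FPKM from 1.70 ± 0.0966 FPKM (log2 change -0.69, SE 0.17, adjusted p = 0.0140). The call of Plxna2 was lost without gland 3 (adjusted p = 0.0595), and its log2 fold change was -0.05 under quantile normalization (adjusted p = 0.836, range 0.00287 to 0.836 across alternatives).

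The 2 most abundant plexins that did not pass were the epithelial B-type plexins. Plxnb2, the leading plexin of both tissues, measured 39.1, 31.3 and 33.8 FPKM across the glands, and 36.6, 48.3 and 59.1 FPKM across the tumours (log2 fold change 0.44, adjusted p = 0.0963). It passed without tumour 1, at 0.61 (adjusted p = 0.0193, range 0.0193 to 0.284 across alternatives). Plxnb1, the receptor of semaphorin 4D, measured 12.9, 10.2 and 12.3 FPKM across the glands, and 7.23, 11.5 and 10.2 FPKM across the tumours (-0.28, adjusted p = 0.247). The groups overlapped for both. Plxna1 stood at a gland mean of 9.38 FPKM and a tumour mean of 9.22 FPKM, and Plxna3 at 2.52 and 3.60 FPKM. Plxna3 was called higher under quantile normalization (adjusted p = 0.0201). Plxnc1, the plexin of leukocytes that binds semaphorin 7A, measured 4.43, 1.48 and 3.91 FPKM across glands 1 to 3, and 1.22, 1.56 and 0.564 FPKM across tumours 1 to 3. These values of Plxnc1 were chosen after they were seen: gland 2, low in B cell markers, lay with the tumours. Without gland 2 Plxnc1 passed at -1.32 (adjusted p = 0.0104, range 0.0104 to 0.634 across alternatives). The 6 T cell markers in the table (Cd3d at 0 in tumour 3) summed to 152.2, 45.7 and 148.02 FPKM in those glands and 28.3, 26.3 and 4.22 FPKM in those tumours, and their part in this was not tested.

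Of 5 secreted class 3 semaphorins tested, 3 were lower, none was higher and 2 did not pass. Sema3c, a ligand of neuropilins and Plxnd1, measured 14.3, 20.2 and 16.3 FPKM across the glands, and 3.35, 2.68 and 1.07 FPKM across the tumours (log2 fold change -2.46, SE 0.29, adjusted p = 7.12e-04). Sema3g, a semaphorin of arterial endothelium, measured 5.73, 4.77 and 5.80 FPKM across the glands, and 0.255, 0.147 and 0.297 FPKM across the tumours (-2.38, SE 0.16, adjusted p = 8.99e-05). Its mean was 23.3 times as high in the glands, the widest ratio of the called members, although the tumour values were so low that this ratio is imprecise. Sema3b, which signals through Nrp2, measured 5.57, 5.99 and 6.34 FPKM across the glands, and 0.555, 0.886 and 1.26 FPKM across the tumours (-1.89, SE 0.18, adjusted p = 3.29e-04). For each of the 3 genes the groups were far apart. Sema3f, another ligand of Nrp2, did not pass, at a mean of 6.23 FPKM in glands and 8.36 FPKM in tumours (0.35, adjusted p = 0.164), nor did Sema3d at 0.892 and 1.31 FPKM. Under quantile normalization Sema3f was called higher (adjusted p = 0.0297). Sema3b and Sema3f lie close together on chromosome 9 (107597674 to 107609229 and 107681500 to 107710475, GRCm38), and one fell where the other did not pass.

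The promoters of 3 lower members (Nrp1, Plxnd1 and Sema3g) and of 2 that rose evenly or most (Efna5 and Epha2) are shown. Shared regulation was not tested, and the promoters only set the sequences beside the values above. Each is the stretch from 250 bases before to 50 bases after the RefSeq start of the gene, from the mouse reference build GRCm38.p6, 5′ to 3′ in the direction of transcription. Capitals mark matches, on either strand, to the ETS core GGAAG and the GC box GGGCGG, which can overlap, as they do in Sema3g.

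Nrp1 (chr8:128358823-128359122, plus strand): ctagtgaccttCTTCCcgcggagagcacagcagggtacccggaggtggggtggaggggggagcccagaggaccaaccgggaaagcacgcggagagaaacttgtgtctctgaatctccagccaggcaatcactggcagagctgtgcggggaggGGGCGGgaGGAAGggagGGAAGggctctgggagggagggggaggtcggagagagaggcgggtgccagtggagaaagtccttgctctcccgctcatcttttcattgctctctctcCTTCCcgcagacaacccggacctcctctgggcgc

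Plxnd1 (chr6:115994956-115995255, minus strand): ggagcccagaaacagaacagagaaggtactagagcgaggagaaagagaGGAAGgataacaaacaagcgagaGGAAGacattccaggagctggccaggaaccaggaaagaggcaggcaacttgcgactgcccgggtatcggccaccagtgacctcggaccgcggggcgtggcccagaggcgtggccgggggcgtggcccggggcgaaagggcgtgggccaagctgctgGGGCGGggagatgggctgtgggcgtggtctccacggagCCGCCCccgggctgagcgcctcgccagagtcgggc

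Sema3g (chr14:31217623-31217922, plus strand): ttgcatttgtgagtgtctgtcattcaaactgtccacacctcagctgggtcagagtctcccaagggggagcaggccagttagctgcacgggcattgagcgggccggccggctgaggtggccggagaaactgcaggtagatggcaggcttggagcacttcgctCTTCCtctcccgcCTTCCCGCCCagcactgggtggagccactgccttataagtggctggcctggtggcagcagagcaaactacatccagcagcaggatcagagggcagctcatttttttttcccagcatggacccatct

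Epha2 (chr4:141300971-141301270, plus strand): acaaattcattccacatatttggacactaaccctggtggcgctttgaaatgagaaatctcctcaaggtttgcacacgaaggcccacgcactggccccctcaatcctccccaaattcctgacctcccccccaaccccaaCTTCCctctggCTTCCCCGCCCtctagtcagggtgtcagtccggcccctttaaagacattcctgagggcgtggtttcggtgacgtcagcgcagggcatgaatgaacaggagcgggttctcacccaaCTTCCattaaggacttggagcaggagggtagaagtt

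Efna5 (chr17:62881268-62881567, minus strand): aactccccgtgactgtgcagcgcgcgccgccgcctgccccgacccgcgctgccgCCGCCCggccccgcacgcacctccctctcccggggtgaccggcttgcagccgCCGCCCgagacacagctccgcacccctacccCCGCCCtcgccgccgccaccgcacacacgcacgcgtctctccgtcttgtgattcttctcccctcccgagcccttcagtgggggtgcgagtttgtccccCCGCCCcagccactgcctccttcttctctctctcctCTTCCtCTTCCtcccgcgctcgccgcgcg

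The ETS core matched 4 times in Nrp1, 2 times in Plxnd1, 2 times in Sema3g, 3 times in Epha2 and 2 times in Efna5. It was found in 71.4% of all 32851 promoters of this length in the RefSeq table and in 73.8% of the 61 promoters listed for 47 members. The GC box was found in 75.4% of the members' promoters and 35.7% of all promoters, with 4 matches in Efna5 and 1 or 2 in the others. The TATA box (TATAAA) was found in 1 of the 61 promoters, that of Efnb2, and in 13.6% of all. Members' promoters were rich in G and C, at a median of 64.0% against 52.7% over all promoters. These are matches of letters and not measured binding.

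All 4 class 6 semaphorins, membrane-bound ligands of A-type plexins, were lower in the tumours, against 23.1% of all genes tested. Sema6d measured 8.80, 8.30 and 8.57 FPKM across the glands, and 1.03, 2.36 and 1.86 FPKM across the tumours (log2 fold change -1.83, SE 0.20, adjusted p = 5.69e-04). Sema6a measured 5.34, 4.43 and 5.46 FPKM across the glands, and 2.42, 3.07 and 3.58 FPKM across the tumours (-0.60, SE 0.16, adjusted p = 0.0225). The groups did not overlap for either. Sema6b dropped to 1.77 ± 0.353 FPKM from 4.45 ± 0.838 FPKM (log2 change -0.97, SE 0.18, adjusted p = 0.00513). Sema6c measured 1.88, 8.25 and 3.04 FPKM across glands 1 to 3, and 0.115, 0.578 and 0.722 FPKM across tumours 1 to 3 (-1.72, SE 0.43, adjusted p = 0.0172), values chosen after they were seen. Gland 2 was highest for Sema6c and also held the high skeletal muscle genes, and the part of muscle was not tested. Without gland 2 the log2 fold change of Sema6c was -1.24. Its call was lost without tumour 1 (adjusted p = 0.0526, range 0.0113 to 0.0939 across alternatives). That of Sema6a was lost without gland 1, gland 3 or tumour 2 (adjusted p = 0.0600 to 0.0901 in those fits, range 0.0124 to 0.302). Under quantile normalization Sema6a and Sema6c kept their direction without a call.

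Class 4 semaphorins, membrane-bound ligands of B-type plexins and of immune cells, moved both ways. Sema4a measured 22.8, 14.1 and 21.3 FPKM across the glands, and 6.46, 10.04 and 14.1 FPKM across the tumours (log2 fold change -0.89, SE 0.29, adjusted p = 0.0417). It was the most abundant semaphorin of the glands and the only called member whose groups overlapped, by gland 2 and tumour 3. Sema4g measured 2.39, 2.85 and 2.43 FPKM across the glands, and 3.96, 5.10 and 8.23 FPKM across the tumours (0.88, SE 0.24, adjusted p = 0.0224), the one semaphorin of 16 tested that was higher. The call of Sema4a was lost without gland 1, gland 3, tumour 1 or tumour 2 (adjusted p = 0.0873 to 0.124 in those fits, range 0.0120 to 0.508 across alternatives). That of Sema4g was lost without gland 1, gland 3 or tumour 2 (0.0538 to 0.0733 in those fits, range 0.00366 to 0.293).

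The other class 4 genes did not pass. Sema4d, the CD100 antigen of lymphocytes that binds Plxnb1, measured 15.7, 13.5 and 15.9 FPKM across the glands, and 11.7, 14.9 and 20.6 FPKM across the tumours (0.03, adjusted p = 0.914). Sema4b measured 11.6, 10.2 and 13.2 FPKM across the glands, and 8.34, 12.7 and 11.1 FPKM across the tumours (-0.13, adjusted p = 0.581). The groups overlapped for both. Sema4c, a ligand of Plxnb2, stood at means of 11.5 and 8.35 FPKM and passed without tumour 3, at -0.55 (adjusted p = 0.0243, range 0.0243 to 0.414 across alternatives). Of the remaining classes, Sema5a dropped to 0.678 ± 0.133 FPKM from 2.12 ± 0.248 FPKM (log2 change -0.89, SE 0.17, adjusted p = 0.00572). Sema7a, a lipid-anchored ligand of Plxnc1, stood at 8.32 and 6.44 FPKM and passed without tumour 2, at -0.54 (adjusted p = 0.0394, range 0.0394 to 0.699).

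**Figure D3:**
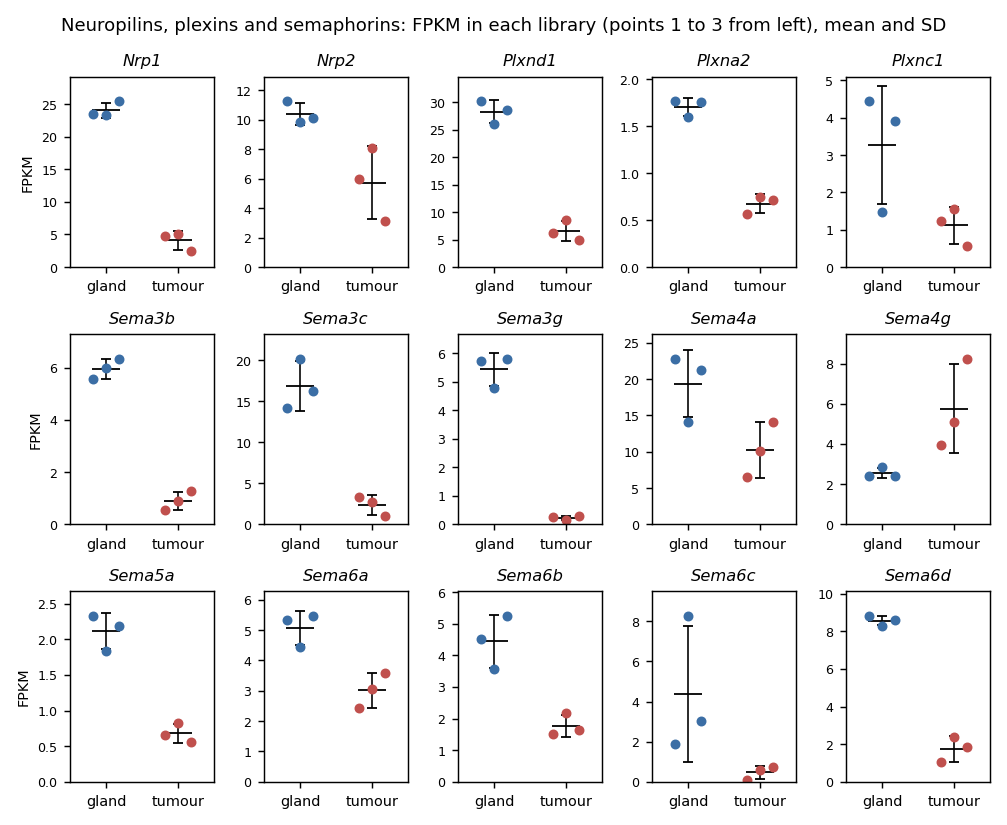
FPKM (y axis, from 0) of neuropilins, plexins and semaphorins in each gland (blue) and tumour (red) library, with points 1 to 3 from the left and the mean and SD in black (n = 3 each); the plot holds all 14 called members of these families and Plxnc1, which did not pass. Nrp1, Plxnd1, Sema3c and Sema3g are low in every tumour, and Sema4g is higher in every tumour. Gland 2 is the high point for Sema6c and the lowest gland for Plxnc1.

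The families were also described by the share each gene gave of the summed FPKM, with no test. FPKM is scaled to transcript length, so levels of different genes can be set side by side. Ephb4 gave the largest share of the Eph receptor FPKM in both, at 46.6% ± 1.74 in the glands and 42.1% ± 0.142 in the tumours (SD, n = 3 each). Epha2 went from the fourth to the second place, at 8.08% ± 0.285 and 20.2% ± 1.51. Among ephrins, Efnb1 led in the glands with 36.4% ± 0.922 and held 11.01% ± 2.35 in the tumours, where Efna1 led with 42.1% ± 6.67. Plxnb2 held 37.7% ± 1.25 of plexin FPKM in glands and 60.4% ± 4.73 in tumours. Nrp1 held 69.8% ± 2.02 of neuropilin FPKM in glands and 42.3% ± 3.11 in tumours, where Nrp2 was the more abundant in every library. Sema4a led the semaphorins of the glands and Sema4d those of the tumours, at 19.8% ± 2.51.

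**Figure D4:**
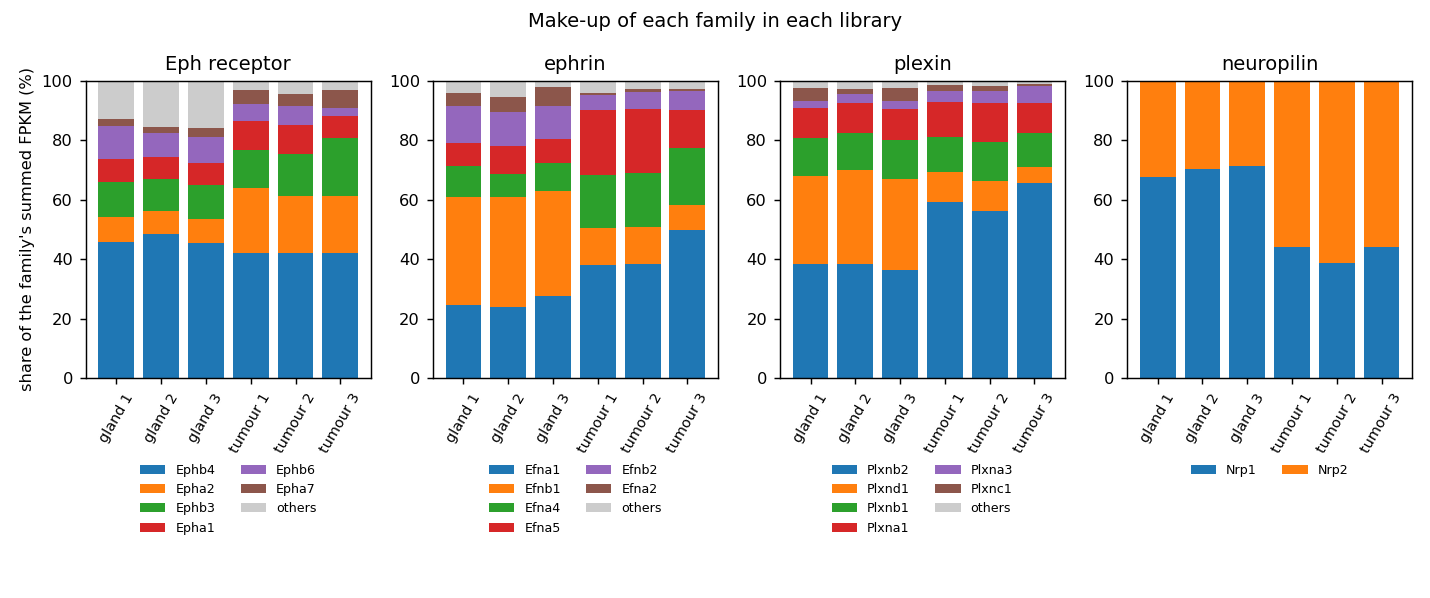
Share of the summed FPKM of Eph receptors, ephrins, plexins and neuropilins (y axis, %) that each gene gave in each of the 6 libraries (bars), with the 6 most abundant genes of a family named. Efnb1 shrinks and Efna1, Efna4 and Efna5 widen from gland to tumour, and Plxnb2 widens as Plxnd1 shrinks.

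Some members, several of them with a known vascular role, were also set against the blood endothelium markers. Of these members Nrp1, Nrp2, Plxnd1, Sema3c, Sema3g, Sema6d and Efnb2 were lower in the tumours, while Ephb4 and Epha2 were higher. All 13 tested markers were lower (median log2 fold change -2.21), none was at 0 in any library, and their sum was 342 to 393 FPKM in glands and 41.7 to 82.3 FPKM in tumours. As a share of that sum, Nrp1 stood at 5.97%, 6.84% and 6.46% in glands 1 to 3 and 6.19%, 6.21% and 5.92% in tumours 1 to 3, and the groups overlapped. Plxnd1 stood at 7.66%, 7.59% and 7.27% in the glands and 8.19%, 10.3% and 11.95% in the tumours, with no overlap. Sema3g stood at 1.46%, 1.40% and 1.47% in the glands and 0.333%, 0.178% and 0.713% in the tumours, so every tumour lay below every gland. Sema3c stood at 3.63% to 5.905% in the glands and 2.57% to 4.375% in the tumours. Sema6d stood at 2.18% to 2.43% and 1.345% to 4.46%, and the groups overlapped for both Sema3c and Sema6d. Nrp2 stood at 2.58% to 2.87% in the glands and 7.53% to 9.82% in the tumours, Efnb2 at 1.19% to 1.39% and 2.45% to 9.43%, and Ephb4 at 4.96% to 5.40% and 31.7% to 96.65%. Epha2, set against the same sum, stood at 0.862% to 0.956% in the glands and 16.4% to 44.4% in the tumours. For Ephb4 and Epha2 this had to be so, as both were higher and the endothelium sum lower in every tumour. Against the luminal epithelium markers, Epha2 stood at 0.234% to 0.281% of their sum in the glands and 0.354% to 0.497% in the tumours. Ephb4 went the other way against the same sum, at 1.56%, 1.47% and 1.47% in glands 1 to 3 and 0.682%, 0.876% and 1.08% in tumours 1 to 3. The 7 other members set against the luminal sum (Nrp1, Nrp2, Plxnd1, Sema3c, Sema3g, Sema6d and Efnb2) were lower in every tumour than in every gland. This had to be so, as their own levels were lower and the luminal sum higher in every tumour. Against the adipocyte markers, Nrp1 stood at 0.280% to 0.318% in the glands and 1.485% to 2.35% in the tumours. Sema3g stood at 0.06485% to 0.0685% and 0.0455% to 0.283%, and the groups overlapped. Like Nrp1, Nrp2, Plxnd1, Sema3c, Sema6d, Efnb2, Ephb4 and Epha2 were higher in every tumour, as Ephb4 and Epha2 again had to be. The direction of these shares thus depends on the markers chosen. The genes set against these sums were chosen after their values were seen, and the part of cell make-up in the fold changes was not tested.

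**Figure D5:**
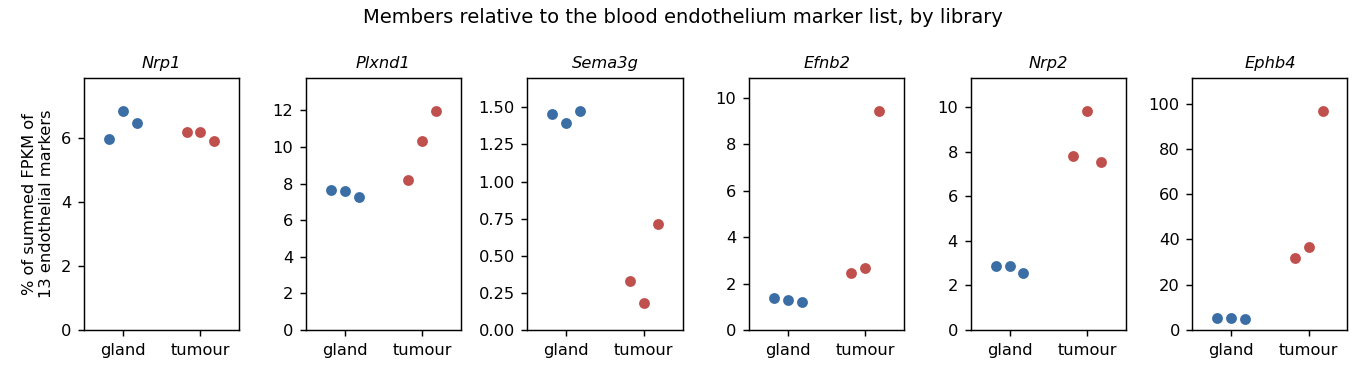
FPKM of 6 members as a percentage of the summed FPKM of 13 blood endothelium markers (y axis, from 0) in each gland (blue) and tumour (red) library. Nrp1 lies between 5.92% and 6.84% in both tissues, Sema3g is lower in every tumour, and Plxnd1, Efnb2, Nrp2 and Ephb4 are higher in every tumour. For Ephb4 this had to be so, as its FPKM was higher and the marker sum lower in every tumour.

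Ligands and receptors that are known to bind were set side by side. Epha2 and its ligand Efna1 were both higher in the tumours, and Ephb2 and its ligand Efnb1 were both lower. Other pairs differed in sign: Ephb4 was higher and Efnb2 lower, Ephb3 was higher and the EphB ligand Efnb1 lower, and Ephb2 was lower and its A-type ligand Efna5 higher. Nrp1, Plxnd1 and Sema3c were all lower, as were Sema3g and Nrp2. Neither Sema4d nor Plxnb1 passed, and neither Sema7a nor Plxnc1 did. Sema6d fell where its receptor Plxna1 did not pass, and Sema4g rose where its receptor Plxnb2 did not pass. Sema3e, which binds Plxnd1 directly, was too low to test, at 0.0601, 0.118 and 0.155 FPKM in glands and 0.615, 0.922 and 0.101 FPKM in the tumours.

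The 14 members below the mean of 1 FPKM were given no test. Ephb1 measured 1.23, 0.672 and 1.12 FPKM across the glands, and 0, 0.381 and 0.199 FPKM across the tumours. Epha3 was at a mean of 0.718 and 0.237 FPKM, the B-type ephrin Efnb3 at 0.614 and 0.183, Plxna4 at 0.428 and 0.142, Sema4f at 0.487 and 0.185 and Sema3a at 0.294 and 0.0216 in glands and tumours. Epha5, a receptor of the nervous system, was listed at 0 in every gland, and tumours 1 to 3 held 0.121, 0.278 and 0.801 FPKM. Plxnb3 stood at 0.126 and 0.240 FPKM, Sema5b at 0.0869 and 0.0284, and Epha8, Epha10 and Plxna4os1 below 0.2 FPKM in every library. Epha6 was listed at 0 in all 6 libraries.

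Genes linked to these receptors and their ligands, not all of which pass the signal on, were taken as 2 lists of partners. Of 28 tested Eph partners, 8 were higher, 5 lower and 15 did not pass (median log2 fold change 0.10). These are 28.6% higher and 17.9% lower, near the 21.9% and 23.1% of all genes tested. Chn2, which encodes the Rac-inactivating protein beta-chimaerin, rose from 2.30 ± 0.422 to 16.8 ± 1.998 FPKM (2.43, SE 0.15, adjusted p = 7.3e-05), the kinase gene Src from 22.2 ± 1.96 to 50.3 ± 7.25 FPKM (1.14) and the adaptor gene Nck2 from 17.7 ± 1.57 to 45.3 ± 8.93 FPKM (1.30). Arhgef15, the exchange factor of vascular cells that acts below EphA4, fell from 5.68 ± 0.0977 to 1.03 ± 0.519 FPKM (-1.75). Among those that did not pass, Inppl1, which encodes the EphA2-bound phosphatase SHIP2, stood at 25.0 and 34.2 FPKM (adjusted p = 0.0664) and the adaptor gene Crk at 25.5 and 30.4 FPKM (adjusted p = 0.0985).

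Of 43 tested semaphorin and plexin partners, 12 were higher, 13 lower and 18 did not pass (median log2 fold change -0.02). These are 27.9% higher and 30.2% lower, against the same 21.9% and 23.1% of all genes tested. Kdr, which is also in the blood endothelium list and encodes the growth factor receptor that pairs with Nrp1 on endothelium, dropped to 2.44 ± 0.623 FPKM from 19.0 ± 1.78 FPKM (log2 change -2.55, SE 0.16, adjusted p = 7.78e-05). Rras, a GTPase that plexins switch off, fell from 75.7 ± 6.29 to 38.7 ± 4.47 FPKM (-0.95). Gipc1, the adaptor that binds the tail of neuropilin-1, rose from 41.0 ± 0.950 to 88.6 ± 7.84 FPKM (1.09), and the small GTPase gene Rhod from 8.12 ± 0.801 to 20.1 ± 2.81 FPKM (1.202). The most abundant partners among those that did not pass were the GTPase genes Rhoa (203 and 182 FPKM) and Rac1 (132 and 156 FPKM). The count of called genes in this list was 15 without gland 3 and 5 without glands 1 and 3.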

How the data were processed

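RNA was measured in 3 mammary gland and 3 mammary tumour libraries, grouped by the tissue in their labels. The deposited table gives 1 value per gene and library, taken as FPKM (fragments scaled to transcript length and library size), although its header names no unit: values are not whole, never negative and sum to between 486080 and 582996 per library. HISAT2, StringTie and the build mm10 are named per the submitters' processing notes, and the sources used here do not give the annotation. With no counts or read totals, depth is unknown and no counting interval is given.

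Values were tested on log2(FPKM + 1) with limma 3.58.1 in R 4.3.3 (2-sided, moderated variance with a trend) over the 13364 genes averaging 1 FPKM or more, with Benjamini-Hochberg adjustment over all of them and a threshold of 0.05. The fit was tested on simulated data in which few genes changed and no library stood apart. That test does not show how far the calls made here hold. Full values are given for members past the threshold whose higher group averaged 5 FPKM or more, and for up to 2 others of each class, by level. Of each partner list up to 4 called genes with the smallest p and up to 2 others with the highest mean are named. The members and all lists were chosen with earlier results of these data known. Positions come from GENCODE M21 (GRCm38), where all 54 members matched 1 gene, and promoters from RefSeq (GRCm38.p6), which lists 61 for 47 of the members. Alternatives changed the pseudocount, the filter, the scaling, the variance trend, the replicate block and the libraries included.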

Additional observations from a re-analysis of the deposited data

How the results depend on the processing

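Of 26 called members, 9 kept their call in every alternative that tested them: Efna5, Efnb1, Epha2, Ephb2, Nrp1, Plxnd1, Sema3b, Sema3c and Sema3g. Ephb2, Sema3b and Sema3g were tested in 15 of the 16 alternatives, and the others in all 16. The called genes numbered 6023 in all (2933 higher, 3090 lower), 4307 to 6371 (2049 to 3130 higher, 2258 to 3241 lower) when 1 library was left out, and 2052 (790 higher, 1262 lower) without glands 1 and 3. The lower genes numbered 1864 at a mean of at least 5 FPKM. Higher members numbered 9, 5 to 10 with 1 library left out, 5 at a common sum per library and 2 without glands 1 and 3. Lower members numbered 17, 12 to 18 with 1 library left out, 10 under quantile normalization, 9 without glands 1 and 3 and 7 of the 21 tested at a mean of at least 5 FPKM. Called Eph partners numbered 13, 9 to 16 with 1 library left out and 3 without glands 1 and 3. For semaphorin and plexin partners these counts were 25, 15 to 26 and 5, and for the netrin, Slit and RGM list 10, 7 to 12 and 4, with 5 at a mean of at least 5 FPKM. Some members that did not pass turned in sign. Under quantile normalization Epha4 stood at 0.1335, Ephb6 at 0.1928 and Plxna1 at 0.06851, Sema4d stood at -0.03155 at a common sum, and Sema3d at -0.01374 with tumours 1 and 2 averaged. Without glands 1 and 3, Efna3 stood at -0.0175, Ephb6 at 0.05043, Plxna1 at 0.1145 and Sema4b at 0.04142. With 1 library left out, Plxna1 ranged from -0.1709 to 0.1115, Sema3d from -0.0806 to 0.5977, Sema4b from -0.2505 to 0.02616 and Sema4d from -0.1696 to 0.2124. The cause was not tested, except that leaving out libraries leaves fewer samples and a higher filter fewer genes.

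The labels do not pair the libraries, and same-numbered ones did not deviate together (r = -0.05, -0.12 and -0.12 across genes). With the number as a replicate block, 4728 genes (2147 higher, 2581 lower), 8 higher and 12 lower members, 11 Eph partners, 18 semaphorin and plexin partners and 8 netrin, Slit and RGM genes were called. The number of libraries and the unknown depth limit the precision of low genes.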

Other observations

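Other guidance families of axons, the netrins, Slits and RGM proteins with their receptors, were also measured. Of 29 listed genes, 15 were tested, 2 were higher, 8 lower and 5 did not pass (median log2 fold change -0.66), and 4 were listed at 0 in all libraries. Of those tested, 13.3% were higher and 53.3% lower, against 21.9% and 23.1% of all genes tested. The median log2 fold change over all genes tested was 0.0083. Robo4, the Slit receptor family member of endothelium, dropped to 2.02 ± 0.156 FPKM from 12.3 ± 2.04 FPKM (log2 change -2.12, SE 0.16, limma adjusted p = 1.17e-04, mean ± SD, n = 3 each). Slit3, a secreted ligand, fell from 13.7 ± 1.49 to 1.35 ± 0.821 FPKM (-2.70), and Ntng2, a lipid-anchored netrin relative, from 5.82 ± 0.560 to 0.369 ± 0.493 FPKM (-2.37). Ntn1, the gene of the secreted ligand netrin-1, rose from 4.97 ± 0.425 to 18.3 ± 6.27 FPKM (1.65, SE 0.23, adjusted p = 0.00138). The co-receptor genes Rgma (13.9 and 12.7 FPKM) and Rgmb (10.6 and 7.07 FPKM) did not pass.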
